A study of Homo sapiens with 20 samples.

Results

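The genes examined are 8 markers of liver cancer stem cells and hepatic progenitors: CD44, CD24, EPCAM, PROM1, ALDH1A1, ANPEP, SOX9 and SOX4. They were taken by symbol from deposited RNA-seq tables of 26038 genes, and 8 of 8 were found. The 20 libraries, 5 for each of 4 groups, were all labelled as MHCC-97H, a line of human liver cancer (hepatocellular carcinoma) cells. No check of the line's identity was made. All cells stood in a water bath for 15 min and then in an incubator for 24 h. The group R-37 was labelled wild type and bathed at 37 °C, and the group R-47 was labelled wild type and bathed at 47 °C. The group NC was also labelled wild type and bathed at 47 °C, and the group NFS1 carried the label of an NFS1 knockdown and was bathed at 47 °C. The knockdown used shRNA, and the number of clones and constructs is unknown here. The study asked how liver cancer cells that survive an incomplete microwave ablation behave, with sublethal heating as its model.

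Cancer stem cell markers are proteins by which cells with strong tumour-forming and self-renewing capacity have been sorted or recognised in liver cancer. Several of them also mark bile duct cells and the bipotent progenitors of the liver, which can give rise to both hepatocytes and cholangiocytes. They fall into surface glycoproteins (CD44, CD24, EpCAM and CD133, the product of PROM1), enzymes (ALDH1A1 and CD13, the product of ANPEP) and transcription factors of the SOX family (SOX9 and SOX4). None of them is specific to stem cells, and transcript levels in a whole culture do not show how many cells carry a marker.

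Each library held between 32219900 and 39689900 counts. On a principal component analysis of the 20 libraries, the first component took 77.7% of the variance. In a separate analysis of NC and NFS1 alone, NC replicate 1 and NFS1 replicate 4 stood apart, at 26.6 and 39.3 on the second component (18.15% of variance), where the rest lay between -15.3 and 7.72. In one of R-37 and R-47 alone, R-37 replicates 1 and 5 lay at the ends of the second component (13.23%), at 28.2 and -36.4, and the rest between -5.67 and 15.2. NFS1, a cysteine desulfurase of iron-sulfur cluster assembly and the gene named in the knockdown label, had 71.5, 72.7, 71.4, 71.9 and 76.0 counts scaled to library size (CPM) in NC replicates 1 to 5. In the libraries labelled NFS1 knockdown it had 70.7, 65.2, 64.2, 64.0 and 68.3 CPM. Every one of these was lower than every NC library, but the log2 fold change of -0.11 did not pass the test (edgeR's quasi-likelihood test, adjusted p = 0.114). Hepatocyte genes were uneven in these cells: 6 to 9 of 18 markers had a mean of at least 1 FPKM (fragments scaled to gene length and library size) in a group. The albumin gene ALB had mean FPKM values of 5.52 in R-37, 2.11 in R-47, 0.400 in NC and 0.304 in NFS1, and transthyretin (TTR) lay at or under 0.0811 FPKM in every group. Of markers of other cells, the leukocyte list summed to 1.68 to 4.09 FPKM per library and the endothelial list to 8.69 to 12.0 FPKM. The fibroblast list summed to 5.95 to 10.5 FPKM in R-37, R-47 and NC and to 13.1 to 22.6 FPKM in NFS1. LUM was the only 1 of its 10 markers with a mean of at least 1 FPKM in any group. Its means were 6.8, 6.3, 8.1 and 14.2 FPKM in R-37, R-47, NC and NFS1. Whether other cells had a part in the results below was not tested.

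Per unit of gene length, ALDH1A1 was the most abundant of the 8 markers in all 4 groups. Its mean was 928 FPKM in R-37, 931 in R-47, 563 in NC and 579 in NFS1, which placed it 49th, 48th, 93rd and 89th among all genes. CD44 followed with mean levels of 63.9, 70.8, 30.1 and 33.3 FPKM in the same order of groups. SOX4 had means of 40.5, 39.8, 17.1 and 23.6 FPKM, and ANPEP had means of 28.3, 31.7, 9.70 and 8.82 FPKM. CD24 and SOX9 were expressed at single-digit FPKM levels, from 1.98 to 7.20 and from 1.80 to 4.84 as group means. EPCAM did not exceed a group mean of 0.361 FPKM. PROM1 was close to undetected.

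**Figure D1:**
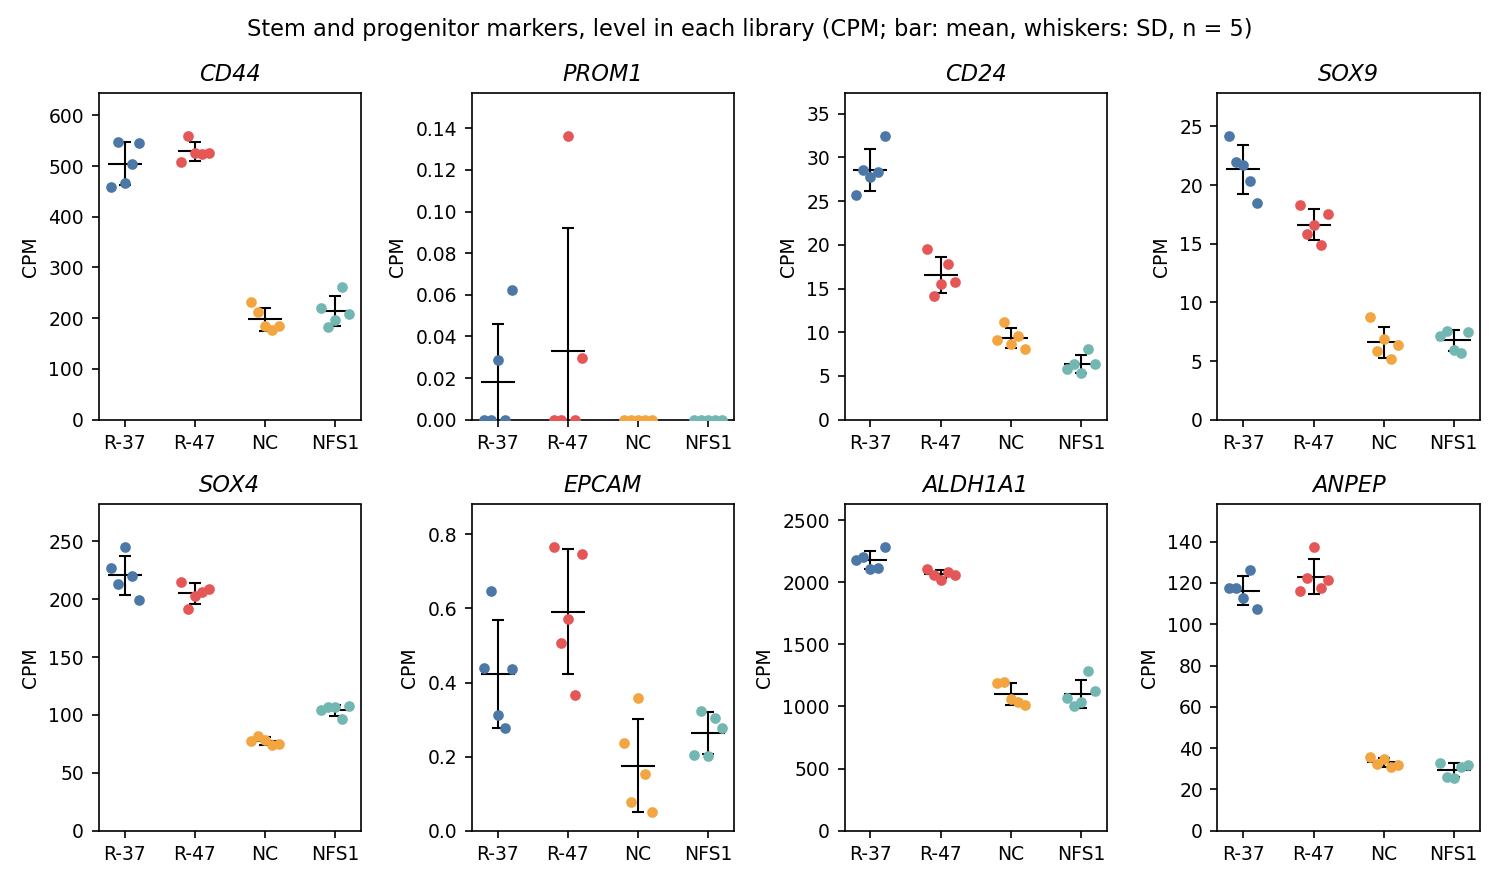
Level of each marker in every library. The vertical axis is CPM scaled by TMM over 20 libraries, from 0 and with its own range in each panel. The horizontal axis gives the 4 groups. Points are single libraries, bars the mean and whiskers 1 SD (n = 5). In 6 of the 8 panels the lowest R-37 or R-47 library lies above the highest NC or NFS1 library, PROM1 and EPCAM being the exceptions. The share of all genes with such a gap between the 2 experiments was not computed. For NC against R-47 alone, 67.3% of all tested genes had no overlap, 34.6% with NC below.

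CD24, a small glycosylphosphatidylinositol-anchored sialoglycoprotein, fell further after heating than the other 6 markers tested. Its level was 25.7, 28.6, 27.8, 28.3 and 32.4 CPM in R-37 replicates 1 to 5. In R-47 it was 19.5, 14.1, 15.5, 17.9 and 15.8 CPM. All 5 heated libraries were lower than all 5 libraries kept at 37 °C. CD24 was 41.9% lower after heating (log2 fold change -0.78, SE 0.089, 95% interval -0.97 to -0.59, edgeR adjusted p = 1.655e-05). In a culture, fewer cells that carry a marker and less RNA per cell cannot be told apart, here and in every result below. Reads from the near-identical pseudogenes CD24P1, CD24P2 and CD24P4, which are not among the counted genes, could not be separated, so CD24 is uncertain to that extent. SOX9, a transcription factor of bile duct and progenitor cells, also fell. It had 24.2, 21.9, 21.8, 20.3 and 18.5 CPM in R-37 against 18.3, 15.9, 16.6, 14.9 and 17.5 CPM in R-47. The groups did not overlap, though the highest heated library lay just under the lowest unheated one. The log2 fold change was -0.35 (SE 0.081, 95% interval -0.53 to -0.18, edgeR adjusted p = 0.005009). Without R-37 replicate 1 or 5, which stood apart, the log2 fold changes were -0.82 and -0.72 for CD24 and -0.30 and -0.39 for SOX9, all still called. SOX9-AS1 overlaps SOX9 on the opposite strand and had 1 to 4 counts in a whole group.

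The other 5 markers tested after heating did not pass the threshold of an adjusted p of 0.05. CD44, the receptor for hyaluronan, had 459.6, 548, 466, 503 and 546 CPM in R-37 and 509, 559, 526, 523 and 527 CPM in R-47. Its log2 fold change was 0.07 (95% interval -0.04 to 0.19, edgeR adjusted p = 0.335). ALDH1A1, which oxidises retinaldehyde to retinoic acid, had 2181, 2207, 2104, 2116 and 2284 CPM in R-37 and 2110, 2056, 2021, 2082 and 2062 CPM in R-47. The ranges met at a single pair of libraries, and the log2 fold change was -0.07 (95% interval -0.15 to 0.0039, adjusted p = 0.153). ANPEP, the aminopeptidase N known as CD13, had 117, 118, 113, 126 and 107 CPM in R-37 and 116, 123, 137, 117 and 122 CPM in R-47, with a log2 fold change of 0.09 (95% interval -0.03 to 0.21, adjusted p = 0.277). SOX4, an HMG-box factor of developing tissues, had 227, 213, 245, 219.9 and 199.6 CPM in R-37 and 215, 192, 203, 206 and 209 CPM in R-47. Its log2 fold change was -0.10 (95% interval -0.22 to 0.02, adjusted p = 0.188). The intervals bound the changes that these libraries allow and do not show equal levels.

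EPCAM and PROM1 were at the limit of the depth. EPCAM, the epithelial cell adhesion molecule, had 15, 23, 11, 8 and 14 counts in R-37 and 28, 18, 21, 13 and 25 counts in R-47. The ranges overlapped, with a log2 fold change of 0.47 (95% interval -0.19 to 1.14, edgeR adjusted p = 0.282). PROM1, a membrane glycoprotein of cell protrusions, had 9 counts over all 20 libraries, and 16 libraries had 0. R-37 held 3 of these counts and R-47 held 6, of which 5 were in R-47 replicate 3. NC and NFS1 held 0 counts of group totals of 181338083 and 179617768, and the 3 counts that a count of 0 allows correspond to 0.0154 and 0.0152 CPM. PROM1 was below the filter on low counts in every comparison and was not tested with it. Such limits cover counting error only.

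In the heat comparison, 0 of 7 tested markers were called higher and 2 were called lower, and the other 5 were not called. The count of 0 by edgeR was also 0 at an unadjusted p under 0.05 and 0 by DESeq2 and by limma-voom. Over all 14344 genes tested, 11.9% were called higher and 13.2% lower, and the groups did not overlap for 18.0% in either direction (8.07% with R-47 above and 9.95% with R-47 below). With library size alone as the scaling, the 1714 higher and 1890 lower calls over all genes became 2977 and 1013, and 1 marker, ANPEP, was called higher (log2 fold change 0.16). The median log2 fold change was -0.07 for the 7 markers and -0.0076 for all tested genes. The labels do not tell whether replicates are separate cultures, so every p-value here reflects only how these samples vary, and that variation may be technical.

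**Figure D2:**
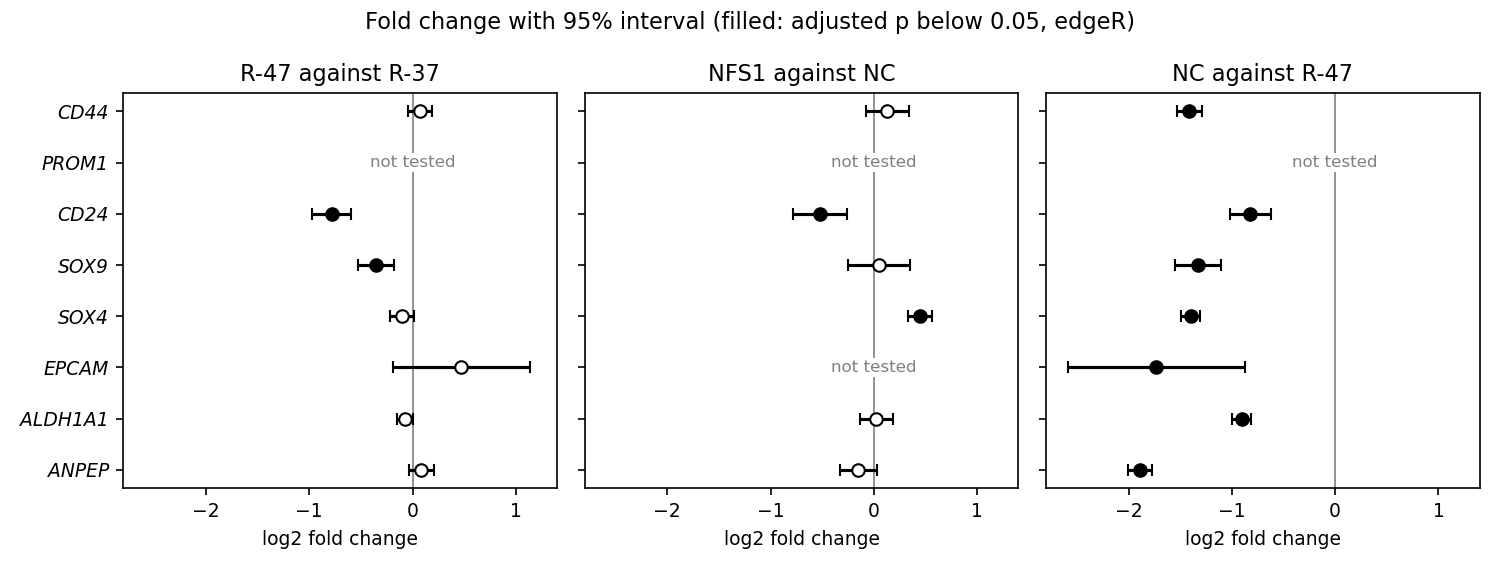
Log2 fold changes of the markers in the 3 comparisons, 1 panel each. The horizontal axis is the log2 fold change, points are edgeR estimates and lines 95% intervals, and filled points have an adjusted p below 0.05. CD24 lies under 0 in all 3 panels, SOX4 lies above 0 in NFS1 against NC, and all 7 markers tested in NC against R-47 lie under 0.

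CD24 and SOX4 moved in opposite directions in the libraries labelled NFS1 knockdown. CD24 was 9.09, 11.2, 8.64, 9.58 and 8.10 CPM in NC and 5.79, 6.39, 5.38, 8.04 and 6.35 CPM in NFS1. The groups did not overlap, but the highest NFS1 library, replicate 4, lay just under the lowest NC library, replicate 5. CD24 was 30.5% lower (log2 fold change -0.52, SE 0.12, 95% interval -0.79 to -0.26, edgeR adjusted p = 0.005332). SOX4 was 77.4, 82.3, 78.4, 74.4 and 74.5 CPM in NC and 104, 107, 107, 96.2 and 108 CPM in NFS1. Every NFS1 library was higher than every NC library, and replicate 4 was the lowest of its group. SOX4 was 1.36-fold higher (log2 fold change 0.45, SE 0.053, 95% interval 0.33 to 0.56, edgeR adjusted p = 3.446e-05). Without NC replicate 1 and NFS1 replicate 4, which stood apart, the log2 fold changes were -0.63 for CD24 (edgeR adjusted p = 0.000195) and 0.47 for SOX4 (edgeR adjusted p = 2.36e-07).

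The remaining 4 tested markers did not pass between NFS1 and NC. CD44 had 231, 211, 184, 176 and 185 CPM in NC and 220.1, 183, 197, 261 and 208 CPM in NFS1 (log2 fold change 0.13, 95% interval -0.08 to 0.34, edgeR adjusted p = 0.343). ALDH1A1 had 1186, 1197, 1058, 1038 and 1008 CPM in NC and 1065, 1002, 1038, 1284 and 1124 CPM in NFS1 (log2 fold change 0.02, 95% interval -0.13 to 0.18, adjusted p = 0.838). NFS1 replicate 4 was the highest of its group for both genes. SOX9 had 8.72, 5.84, 6.84, 5.18 and 6.40 CPM in NC and 7.17, 7.56, 5.94, 5.68 and 7.47 CPM in NFS1 (log2 fold change 0.05, 95% interval -0.25 to 0.35, adjusted p = 0.813). ANPEP had 35.7, 32.2, 34.9, 30.7 and 31.8 CPM in NC and 32.9, 25.9, 25.3, 31.0 and 31.8 CPM in NFS1 (log2 fold change -0.15, 95% interval -0.33 to 0.03, adjusted p = 0.195). EPCAM had 9, 3, 14, 6 and 2 counts in NC and 8, 13, 8, 12 and 11 counts in NFS1 and was below the filter on low counts. Without NC replicate 1 and NFS1 replicate 4, the log2 fold changes were 0.11 for CD44, -0.01075 for ALDH1A1, 0.23 for SOX9 and -0.15 for ANPEP, and none of these 4 was called (edgeR adjusted p of 0.133 to 0.887).

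Of the 6 markers tested between NFS1 and NC, 1 was called higher, 1 was called lower and 4 were not called. Among all 15086 tested genes 15.7% were called higher and 12.5% lower, and the groups did not overlap for 21.0%. The median log2 fold change was 0.04 for the markers and 0.02 for all genes. The heat and knockdown comparisons share no library. CD24 fell in both, but no test of a difference between its 2 fold changes was made.

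The groups NC and R-47 carry the same genotype and bath labels but belong to different experiments, so experiment and group cannot be told apart in what follows. Whether the cells of both experiments are the same line or stock was not tested, and every value of this comparison depends on it. Every marker tested was lower in NC. ANPEP stood at 3.71-fold lower (log2 fold change -1.89, 95% interval -2.01 to -1.77), CD44 at 2.66-fold (-1.41, -1.54 to -1.29) and SOX4 at 2.64-fold (-1.40, -1.49 to -1.31). SOX9 was 2.51-fold lower (-1.33, -1.55 to -1.10), ALDH1A1 was 1.87-fold lower (-0.91, -0.999 to -0.812) and CD24 was 1.77-fold lower (-0.82, -1.02 to -0.62). EPCAM was 3.32-fold lower (log2 fold change -1.73, 95% interval -2.59 to -0.88), from 105 counts in R-47 and 34 in NC, but it passed the filter on low counts through its R-47 libraries only, so its lower call was favoured by the filter. The edgeR adjusted p lay between 8.52e-18 for ANPEP and 0.0006234 for EPCAM. The 2 groups did not overlap for any of the 7 tested markers. For EPCAM the margin was narrow, with the highest NC library at 0.359 CPM and the lowest R-47 library at 0.365 CPM.

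Leaving EPCAM aside because of the filter, 6 of 6 markers were lower. This is to be read against a background of 39.6% of 15080 genes called lower and 40.1% called higher, or 79.7% in either direction. All NC libraries lay under all R-47 libraries for 34.6% of genes and above them for 32.7%, which makes 67.3% without overlap. The median log2 fold change was -1.36 for these 6 markers (-1.40 with EPCAM) and 0.01 for all genes. With library size alone as the scaling, the median of all genes moved by 0.18 in this comparison. R-47 also serves in the heat comparison and NC in the knockdown comparison, so these fold changes are not independent of the values above.

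In order of level, CD24 was R-37, R-47, NC and NFS1 from highest to lowest, with no overlap between neighbours. SOX9 was highest in R-37, then R-47, with NFS1 and NC overlapping below. SOX4 overlapped between R-37 and R-47, and NFS1 lay between them and NC without overlap. CD44, ALDH1A1 and ANPEP each formed 2 pairs, R-37 with R-47 above and NC with NFS1 below, and the libraries overlapped within each pair. For EPCAM each group overlapped its neighbour in the order. Within groups, deviations from the group mean on the log2 CPM scale were compared for 21 pairs of markers, and Pearson's r ran from -0.47 to 0.85 over 20 libraries. The pairs at the ends are named for being there: CD44 with ALDH1A1 (0.49 in R-37 and R-47, 0.92 in NC and NFS1) and CD44 with SOX4 (-0.87 and -0.27). These are descriptions with no p, and the libraries share their scaling. NFS1 replicate 4 and NC replicate 1, which stood apart, deviated upwards for both CD44 (0.298 and 0.235) and ALDH1A1 (0.226 and 0.115). No correlation without these libraries was computed.

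The sequences upstream of 4 markers are shown because of the results above: CD24 and SOX4 moved in opposite directions with the knockdown label, and ALDH1A1 and CD44 were the most abundant markers. Each is the 250 bases before a start site listed by RefSeq (GRCh38.p14), where 6 of the 8 markers were matched, and is written 5′ to 3′ on the strand of the gene. Capitals mark matches on either strand to CCAAT, the CCAAT box, or GGGCGG, the GC box. The windows are chr11:35138921-35139170 (+) for CD44, chr6:106974040-106974289 (-) for CD24, chr6:21593501-21593750 (+) for SOX4 and chr9:72953054-72953303 (-) for ALDH1A1.
CD44: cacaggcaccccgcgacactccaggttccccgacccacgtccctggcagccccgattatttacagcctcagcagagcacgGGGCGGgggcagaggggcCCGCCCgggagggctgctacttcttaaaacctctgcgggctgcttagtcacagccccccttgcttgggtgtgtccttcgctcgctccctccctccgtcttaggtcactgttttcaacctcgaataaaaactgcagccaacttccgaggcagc
CD24: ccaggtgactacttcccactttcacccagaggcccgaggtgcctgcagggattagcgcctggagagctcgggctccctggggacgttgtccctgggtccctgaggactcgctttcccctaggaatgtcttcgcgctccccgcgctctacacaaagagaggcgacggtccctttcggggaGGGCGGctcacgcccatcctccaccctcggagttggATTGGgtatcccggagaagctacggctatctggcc
SOX4: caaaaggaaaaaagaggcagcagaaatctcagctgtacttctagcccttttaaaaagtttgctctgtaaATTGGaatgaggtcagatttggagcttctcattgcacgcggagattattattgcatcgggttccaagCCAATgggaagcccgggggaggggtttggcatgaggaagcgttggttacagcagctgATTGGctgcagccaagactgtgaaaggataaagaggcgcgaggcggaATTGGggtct
ALDH1A1: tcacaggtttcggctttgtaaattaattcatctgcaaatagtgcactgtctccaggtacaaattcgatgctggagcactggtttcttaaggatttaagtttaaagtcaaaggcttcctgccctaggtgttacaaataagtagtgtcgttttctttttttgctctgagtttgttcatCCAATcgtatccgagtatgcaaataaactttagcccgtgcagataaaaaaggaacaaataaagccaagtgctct
SOX4 held 4 CCAAT matches, which began 181, 114, 57 and 10 bases before the start site, while 32.01% of 35116 promoter windows of this length held at least 1 and 0.874% held at least 4. ALDH1A1 held 1 CCAAT match, 74 bases before its start. CD24 held 1 CCAAT match at 35 bases and 1 GC box at 71 bases in this window, which is 1 of 3 listed for the gene. Its window at chr6:106975628-106975877 held 1 GC box and 0 CCAAT matches, and that at chr6:106975466-106975715 held 0 of either. CD44 held 2 GC boxes, at 170 and 152 bases, a motif present in 42.6% of all windows. The letters GAANNTTC, the core of the heat shock element (5.78% of all windows), and TATAAA (10.7%) were not in any window of the matched markers. The GC content was 38.4% for ALDH1A1, 48.8% for SOX4, 62.4% for CD44 and 64.0% for CD24, against a median of 58.0% over all windows. No match is known from these data to be a bound site.

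In GRCh38.p14 the genes lie at chr11:35139171-35232402 (CD44), chr6:106969831-106976855 (CD24), chr2:47369311-47387020 (EPCAM), chr4:15968228-16084023 (PROM1), chr9:72900671-72953053 (ALDH1A1), chr15:89784895-89814852 (ANPEP), chr17:72121020-72126416 (SOX9) and chr6:21593751-21598619 (SOX4). All 8 are protein-coding, and SOX4 has 1 exon. The counts cover whole genes, so splice forms of CD44 were not resolved. Other overlapping genes are AL512380.2 at SOX4, CYP1D1P at ALDH1A1, CD44-AS1 and AL133330.1 at CD44, and RN7SKP119, MIR559 and RF00017 at EPCAM. FGFBP2 overlaps PROM1 on the same strand. The strand setting is unknown, so reads of opposite-strand genes cannot be told from those of the markers.

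The 6 lists of related genes were other progenitor and stem surface markers, self-renewal and pluripotency factors, the Notch pathway, other aldehyde dehydrogenases, partners and processing of CD44 and EpCAM, and other SOX genes. After heating, where 11.9% of all genes were called higher and 13.2% lower, 1 of 9 tested stem surface markers rose and 4 fell. KRT7, a keratin of bile duct epithelium, had 31.8, 22.8, 30.7, 25.2 and 22.3 CPM in R-37 and 51.0, 47.7, 52.5, 47.1 and 52.0 CPM in R-47. No library of the first group reached the second (log2 fold change 0.92, SE 0.093, edgeR adjusted p = 4.952e-06). The integrin subunit ITGB1 fell from 862 ± 80.0 to 607 ± 40.9 CPM (SD, n = 5, log2 fold change -0.50) and the drug efflux pump ABCG2 fell from 174 ± 11.4 to 147 ± 6.26 CPM (log2 fold change -0.24). KRT19, the other bile duct keratin of the list, was at 425 CPM in R-37 and 423 CPM in R-47 and was not called (edgeR adjusted p = 0.981).

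Against the same 11.9% and 13.2% of all genes, 1 of 13 tested aldehyde dehydrogenases rose after heating (ALDH3B1, log2 fold change 0.39) and 5 fell. The fatty aldehyde dehydrogenase ALDH3A2 fell from 379 ± 13.6 to 296 ± 10.99 CPM (SD, n = 5, log2 fold change -0.35), and ALDH1L2, a mitochondrial folate enzyme, fell from 7.25 to 4.76 CPM (log2 fold change -0.60). Self-renewal factors had 2 of 11 higher, KLF4 (log2 fold change 0.30) and NR0B1 (0.26), and 2 lower, HMGA2 (-0.26) and TBX3 (-0.27). Of 13 Notch genes 0 rose and 2 fell, the Notch target NRARP (log2 fold change -0.40) and the glycosyltransferase gene LFNG (-0.40). Among 18 partners of CD44 and EpCAM, 5 rose and 3 fell. ESRP2, a splicing regulator of CD44, rose (log2 fold change 0.43), as did FHL2 (0.26), while osteopontin (SPP1), a ligand of CD44, fell (-0.31) and CEMIP, a hyaluronan-binding protein, fell (-0.18). Of 3 tested SOX genes edgeR called 0, with 0 higher and 1 lower at an unadjusted p under 0.05, and DESeq2 called that 1 lower and limma-voom 0. For the 0 Notch genes higher, the counts at an unadjusted p under 0.05, by DESeq2 and by limma-voom were also 0.

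Across the 6 lists 9 genes were higher and 16 lower after heating, but 17 were higher and 8 lower with library size alone as the scaling, so the balance between directions flips with the scaling. HMGA2, TBX3, LFNG and CEMIP were not called with library size alone (edgeR adjusted p of 0.0559, 0.0598, 0.0602 and 0.0908). LFNG lost its call when any of R-37 replicates 1, 3 and 4 or R-47 replicates 2, 3 and 4 was left out (edgeR adjusted p of 0.0579 to 0.0778), leaving 1 Notch gene lower. NR0B1 lost its call without R-47 replicate 3 or 5 (edgeR adjusted p of 0.058 and 0.0514), leaving 1 self-renewal factor higher. Without R-37 replicate 5, 4 self-renewal factors were lower, and without R-37 replicate 2, 2 aldehyde dehydrogenases were higher. The count of partners higher was 3 without R-47 replicate 2, 3 or 4. For the SOX genes 1 was higher without R-37 replicate 1, and 1 was lower without R-37 replicate 5 or R-47 replicate 3.

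**Figure D3:**
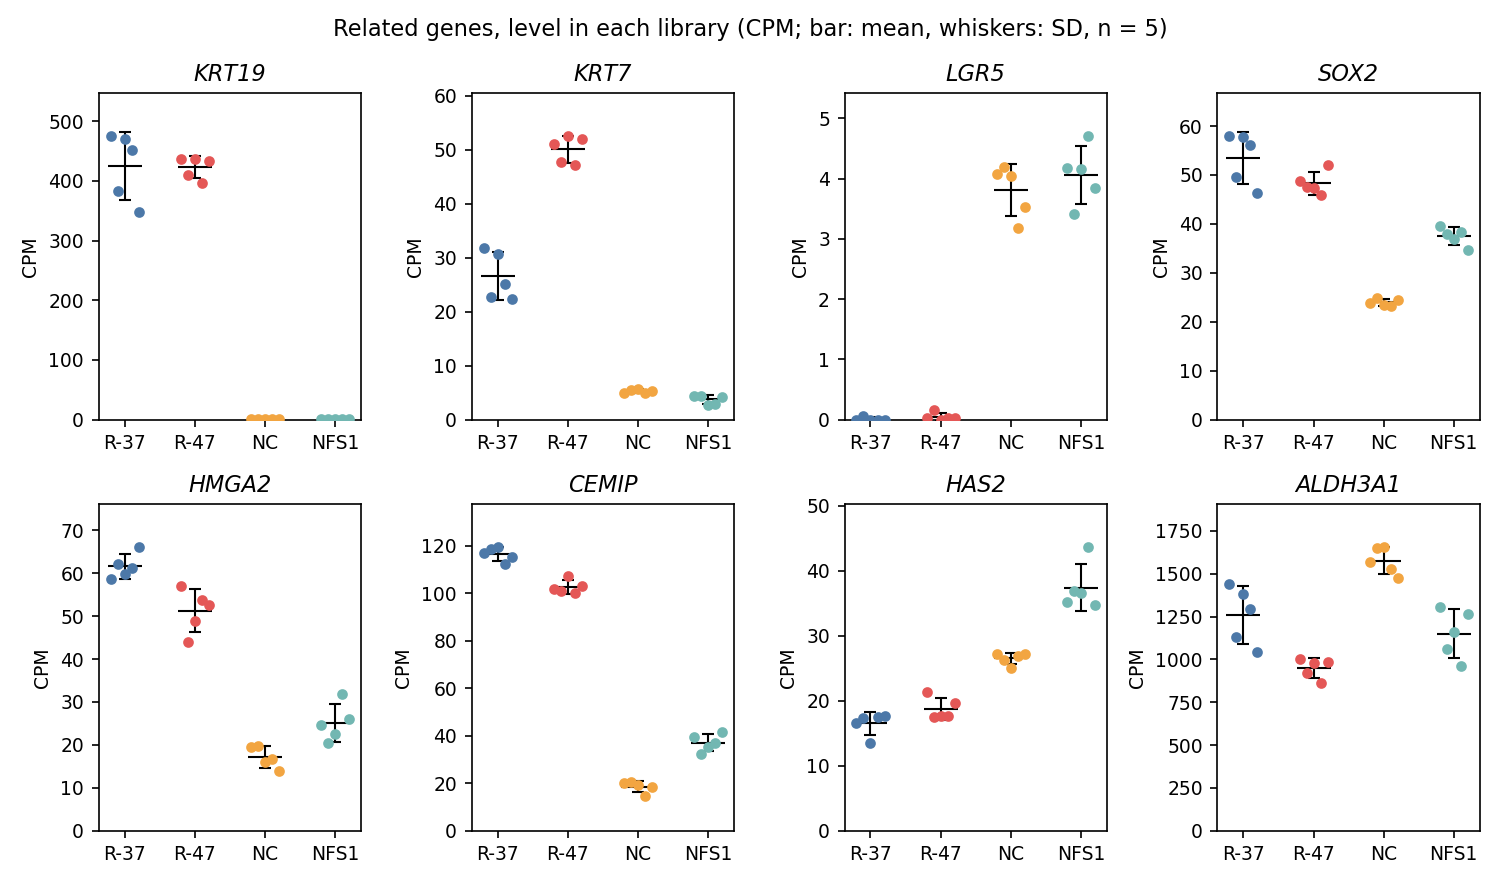
Levels of 8 related genes in every library. The vertical axis is CPM scaled by TMM over 20 libraries, from 0 and with its own range in each panel. The horizontal axis gives the 4 groups, points are single libraries, bars the mean and whiskers 1 SD (n = 5). KRT19 is near 425 CPM in R-37 and R-47 and under 1 CPM in NC and NFS1, LGR5 has the reverse order, and CEMIP and SOX2 are higher in NFS1 than in NC.

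Between NFS1 and NC, 15.7% of all genes were called higher and 12.5% lower. The self-renewal factors had 5 of 11 genes higher and 0 lower, with a median log2 fold change of 0.32 against 0.02 for all genes. The count of 0 lower by edgeR was also 0 at an unadjusted p under 0.05, by DESeq2 and by limma-voom. SOX2, a pluripotency factor, had 23.9, 24.9, 23.4, 23.2 and 24.5 CPM in NC and 39.6, 37.9, 36.9, 38.4 and 34.7 CPM in NFS1. All libraries of NFS1 lay above those of NC (log2 fold change 0.66, SE 0.060, edgeR adjusted p = 3.739e-06). MYC also rose (log2 fold change 0.32). Other SOX genes had 3 of 7 higher and 0 lower, among them SOX5, from 6 to 14 counts per library in NC and 39 to 65 in NFS1 (log2 fold change 2.26), and SOX13 (0.29). SOX5 reached the minimum count in all NFS1 libraries and 3 of 5 NC libraries, so its call was favoured by the filter. Of the 4 SOX genes that reached it in all libraries, 2 were higher. At an unadjusted p under 0.05, 1 SOX gene was lower by edgeR, and DESeq2 and limma-voom called 0 lower. Of 13 Notch genes 5 rose and 1 fell: the receptor NOTCH2 (log2 fold change 0.36) and the target HEY1 (0.58) rose, and the receptor NOTCH3 fell from 1.82 to 1.09 CPM (-0.72).

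The same shares of all genes, 15.7% and 12.5%, apply to the partners, stem surface markers and aldehyde dehydrogenases. Among the partners of CD44, CEMIP had 20.2, 20.3, 19.2, 14.7 and 18.4 CPM in NC and 39.5, 32.2, 35.1, 37.0 and 41.7 CPM in NFS1. It was 2.02-fold higher with no overlap (log2 fold change 1.02, SE 0.097, edgeR adjusted p = 5.9e-06), and the hyaluronan synthase HAS2 rose from 26.5 ± 0.901 to 37.4 ± 3.62 CPM (SD, n = 5, log2 fold change 0.51). In all 5 of 18 partners were higher and 3 lower, including the tight junction gene CLDN7 (log2 fold change -0.42). With DESeq2, 5 partners were higher and 6 lower, so the balance between directions depended on the method. Stem surface markers had 3 of 10 higher, with ICAM1 (log2 fold change 0.48) and CD47 (0.39), and 2 lower, CDH17 (-0.42) and KRT7 (-0.48). Of 14 aldehyde dehydrogenases 1 rose, the proline synthesis enzyme ALDH18A1 (log2 fold change 0.45), and 6 fell. ALDH3A1 fell from 1575 ± 79.0 to 1151 ± 143 CPM (SD, n = 5, log2 fold change -0.43), and ALDH1L1, the cytosolic folate enzyme, fell from 1.66 to 0.375 CPM (-2.12), having reached the minimum count in 5 NC but 4 NFS1 libraries. Without NFS1 replicate 3 the call of KRT7 was lost (edgeR adjusted p = 0.0502), leaving 1 stem surface marker lower, and 1 partner was lower. Without NFS1 replicate 4, 9 Notch genes were higher, 1 self-renewal factor was lower and 5 partners were lower. Without both it and NC replicate 1, the counts higher and lower were 4 and 3 for the stem surface markers, 7 and 1 for the self-renewal factors and 9 and 1 for the Notch genes. They were 1 and 7 for the aldehyde dehydrogenases, 6 and 5 for the partners and 3 and 1 for the SOX genes, and every named gene of these lists kept its call.

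Between NC and R-47, the bile duct keratins were far lower in NC. KRT19 had 437, 410.2, 437, 397 and 434 CPM in R-47 and 0.657, 0.897, 0.692, 0.960 and 0.762 CPM in NC, a 527-fold difference (log2 fold change -9.04, SE 0.075, edgeR adjusted p = 2.982e-27). KRT7 was 9.39-fold lower in NC (log2 fold change -3.23). LGR5, a receptor for R-spondins and a marker of stem cells in several epithelia, went the other way, with 1, 6, 0, 1 and 1 counts in R-47 and 155, 164, 158, 126 and 139 counts in NC. LGR5 passed the filter through NC only, so its call was favoured by the filter. Of the other 9 tested stem surface markers 7 were lower in NC, against 39.6% of all genes. Self-renewal factors had 5 of 11 higher, against 40.1% of all genes, with POU5F1 (log2 fold change 1.88) and KLF4 (0.61), and 4 lower, with HMGA2 (-1.57) and SOX2 (-1.004).

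Against the same 40.1% higher and 39.6% lower of all genes, the other lists were called in both directions except the SOX genes. Notch genes had 5 of 13 higher in NC, with NRARP (log2 fold change 1.20) and the ligand JAG2 (1.02). The 4 lower included NOTCH2 (-1.51) and the target HES1 (-1.08). NOTCH3, also called higher, reached the minimum count in 5 NC but 4 R-47 libraries. Of the 11 Notch genes that reached it in all libraries, 4 were higher and 4 lower. Aldehyde dehydrogenases were split as well, 6 of 14 higher, with ALDH1L2 (log2 fold change 1.66) and ALDH3A1 (0.74). The 8 lower included ALDH3B1 (-1.48) and ALDH2 (-0.85). ALDH1L1, 1 of the 6 higher, reached the minimum count in 5 NC and 0 R-47 libraries, so its call was favoured by the filter. Of the other 13, 5 were higher and 8 lower. The partners had 8 of 18 higher, with the hyaluronidase HYAL1 (log2 fold change 2.98) and CLDN7 (2.16), and 7 lower, with CEMIP (-2.46) and the sheddase ADAM10 (-0.96). SOX7 passed the filter through NC only. SOX12 and SOX7 were the 2 of 4 tested SOX genes called higher (log2 fold changes 2.07 and 1.56), and 0 were lower by edgeR, at an unadjusted p under 0.05, by DESeq2 or by limma-voom. Of the 3 SOX genes other than SOX7, 1 was higher and 0 were lower. When any R-47 replicate was left out 4 SOX genes were called higher, and without R-47 replicate 4, NC replicate 2 or NC replicate 3, 1 was called lower. Leaving out a library also lowers the number of libraries that the filter requires. These counts can therefore include further genes that passed through NC only, which was not tested.

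**Figure D4:**
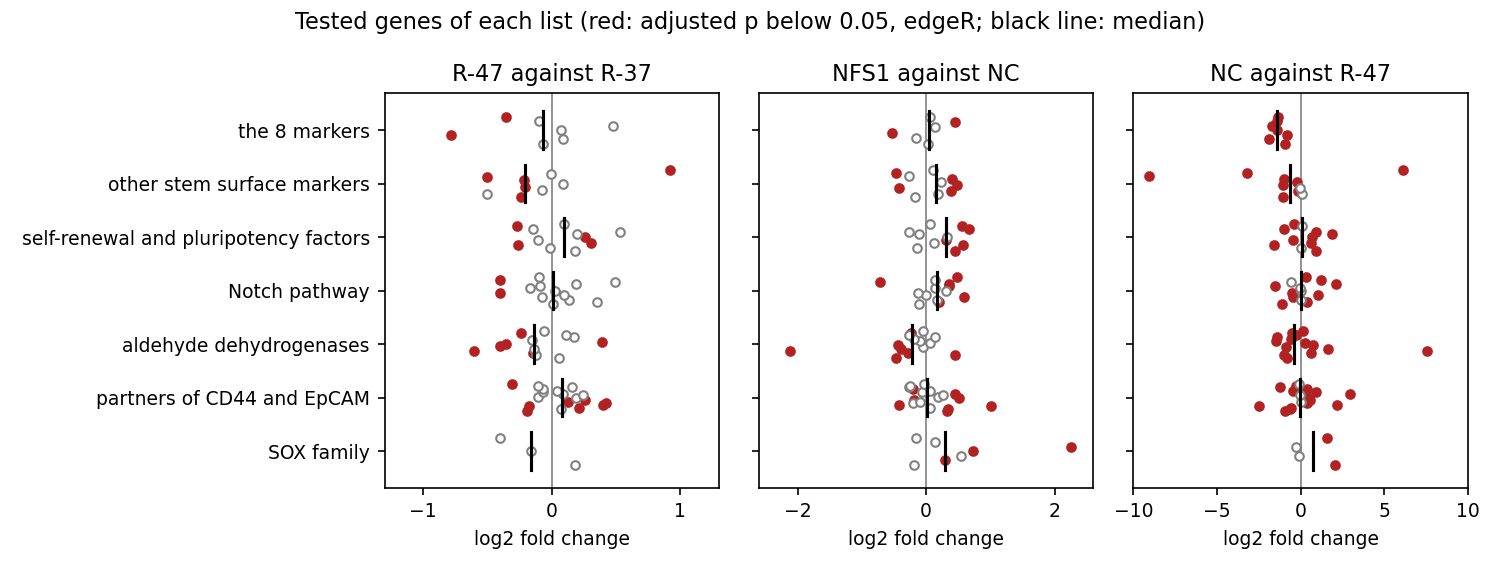
Log2 fold changes of the tested genes of the markers and the 6 related lists, 1 panel per comparison. The horizontal axis is the log2 fold change, with its own range in each panel, and each line of points is a list. Red points have an edgeR adjusted p below 0.05 and black lines are medians. In NC against R-47 the median of the markers is -1.40, that of the stem surface list -0.61 and that of the Notch list near 0.

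By the shape of their levels over the 20 libraries, the genes most like each marker were found among 10483 genes by Pearson's r of log2 CPM. These values rest mainly on the gap between the experiments and are given with no p. SMAD3 was most like CD44 (r = 0.995), with mean levels of 373 CPM in R-37, 395 in R-47, 183 in NC and 201 in NFS1, followed by ARHGEF28 (r = 0.995). SQLE was most like CD24 (r = 0.987), falling from 118 CPM in R-37 through 93.1 in R-47 and 61.8 in NC to 50.1 in NFS1, followed by TSPAN6 (r = 0.983). For SOX9 the genes were DKK3 (r = 0.984) and COL5A2 (r = 0.982), and for SOX4 they were ZNF469 (r = 0.994) and TIMP2 (r = 0.993). ZNF469 had mean levels of 50.4, 43.4, 2.36 and 6.51 CPM in R-37, R-47, NC and NFS1. For ALDH1A1 they were CHD1L (r = 0.995) and DKK1 (r = 0.994), and for ANPEP they were PLK1 (r = 0.998) and CD22 (r = 0.996). For EPCAM the highest value was 0.844, with HECW2, then 0.843 with TMEM116. For PROM1, SUPT7L and HACE1 came first with r of 0.596 and 0.575, which in counts this sparse is no finding.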

How the data were processed

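Poly(A) RNA of 20 libraries was sequenced after TRIzol extraction and a VAHTS Universal V6 kit, per the labels' protocols. The tools named in the submitters' processing notes are HISAT2, HTSeq and fastp, with the build hg38. Not given in the sources used here were versions, annotation and strand. Deposited by the authors were raw whole-number counts per gene and FPKM values of the same genes.

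Titles gave the groups and matched table columns to samples. The 8 markers and all gene lists were chosen with earlier results of these data known. Within each pair of groups, genes passing edgeR's filterByExpr (minimum count 10, total 15) were scaled by TMM and tested by edgeR's quasi-likelihood test. P-values were adjusted over all genes tested (Benjamini-Hochberg, threshold 0.05). Levels are CPM with TMM over all 20 libraries, and genes were compared with each other by FPKM only. Intervals are 95%. From each list and comparison, the 2 called genes of smallest adjusted p in each direction were named, and for each marker the 2 genes of highest r among those with an average log2 CPM of at least 2 (prior count 2), leaving out noncoding-style symbols. Of the genes so named, 1 is not reported here. KRT19 in the heat comparison was chosen after its values were seen. No 2 libraries held identical counts.

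Sequences and positions came from RefSeq (GRCh38.p14), and GC content from GENCODE transcripts. In simulated data, every gene was given the same dispersion, which was not fitted to these libraries. There edgeR found 10% of 1.25-fold, 68% of 1.5-fold and 98% of 2-fold changes for R-47 against R-37 (14376 genes). For NFS1 against NC (15138 genes) it found 12%, 70% and 96%. These shares are not detection rates for the real libraries, where KLF4 was called after heating at 1.23-fold. Depth was 32219900 to 39689900 counts per library. Alternatives were other scalings, filters, tests (DESeq2, limma-voom, limma on log2 FPKM with a pseudocount of 1 or 0.1), 1 fit of 20 libraries, length and GC offsets, a replicate block, and each library left out. Software was edgeR 4.0.16, DESeq2 1.42.0 and limma 3.58.1 in R 4.3.3, and matplotlib 3.10.9, numpy 2.4.6 and pandas 2.3.3 in Python 3.11.15.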

Additional observations from a re-analysis of the deposited data

How the results depend on the processing

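Of 440 values of the markers under the alternatives, 424 kept their direction and their side of the threshold, 4 newly passed it, 12 turned sign without having been called, and 0 of the called markers lost a call where they were tested. Between NC and R-47 the count of markers lower ran from 6 to 8 around 7: EPCAM was not tested with a minimum count of 50 or in the 2 filtered FPKM fits, and PROM1 was called without a filter. That call of PROM1 rested on 6 counts in R-47, 5 of them in replicate 3, against 0 in NC. Over the alternatives, CD24 ran from -0.85 to -0.60 after heating (highest adjusted p 0.00143) and from -0.63 to -0.36 between NFS1 and NC (0.0202), SOX9 from -0.39 to -0.22 after heating (0.0425), and SOX4 from 0.42 to 0.47 between NFS1 and NC (0.000938). After heating, 1 marker instead of 0 was called higher with library size alone and with limma on log2(FPKM + 1) and log2(FPKM + 0.1), where it was ANPEP (0.16 each), and with length and GC offsets, where it was CD44 (0.14, adjusted p = 0.00263) and ANPEP turned to -0.0201. ALDH1A1 after heating turned to 0.0048 with library size alone and to 0.0052 in the 3 FPKM fits. Between NFS1 and NC it turned to -0.0095 with length and GC offsets and to -0.0108 without both libraries that stood apart, an alternative chosen after seeing the data. With 1 library left out, it ran from -0.0393 to 0.0519 there and SOX9 from -0.0257 to 0.171. The cause of these turns was not tested. NFS1 itself passed between NFS1 and NC with DESeq2 (-0.12, adjusted p = 0.0334), with 1 fit of 20 libraries (-0.13, 0.0485) and with length and GC offsets (-0.13, 0.0227).

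Counts over all genes after heating (1714 higher, 1890 lower) became 2977 and 1013 with library size alone, 839, 841 and 827 lower in the FPKM fits with a pseudocount of 1, of 0.1 and of 1 without a filter, 2608 higher in the last of these, and 2901 lower with length and GC offsets. Between NFS1 and NC, 1881 lower became 3204 with those offsets, and between NC and R-47, 5978 lower became 3741 and 3734 in the filtered FPKM fits, in which fewer genes are tested. Genes of the 6 related lists after heating (9 higher, 16 lower) became 17 and 8 with library size alone, 16 and 7 in both filtered FPKM fits, 7 lower without the filter, 10 lower in 1 fit of 20 libraries and 25 lower with the offsets, which also gave 19 lower in place of 12 between NFS1 and NC. In single lists, 95 of 804 counts moved by more than 1.5 times and 4 of 402 balances between directions turned. Between NFS1 and NC, the partners (5 higher, 3 lower) became 5 and 6 with DESeq2 and in 1 fit of 20 libraries, and 4 and 5 with the offsets. After heating, the stem surface markers (1 higher, 4 lower) became 3 and 1 in the FPKM fit without a filter. Of 55 results for named genes of these lists, 9 lost a call under some alternative and 0 turned sign. After heating, log2 fold changes over all genes correlated with GC content (Spearman 0.388) and length (-0.222), and between NFS1 and NC the values were -0.227 and 0.235.

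Replicate numbers did not pair the samples: deviations of same-numbered libraries correlated between -0.11 and 0.11 after heating and between -0.23 and 0.08 for NFS1 and NC, and 0 of 5 libraries correlated best with their own number in either. With the number as a replicate block, log2 fold changes were -0.79 for CD24 and -0.35 for SOX9 after heating and -0.53 for CD24 and 0.45 for SOX4 between NFS1 and NC, no marker's call changed, and all-gene counts were 1438 higher and 1490 lower after heating and 1733 and 1335 between NFS1 and NC. Depth limits PROM1, with 9 counts in all, and EPCAM, with 34 counts in NC.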
